A study of Mus musculus with 11 samples.

Results

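The genes described here carry the insulin signal in fat cells and let glucose enter them: Insr, Irs1, Irs2, Grb14, Pik3r1, Akt1, Akt2, Foxo1, Slc2a4 and Slc2a1. They were chosen by symbol, and all 10 were found among the 12787 genes of the table. Expression was measured by RNA sequencing of whole gonadal white adipose tissue (WAT) from male C57Bl6/J mice. All mice ate a diet with 60% fat (high fat diet, HFD), and the adipose tissue was collected after 20 weeks. The HFD group of 5 mice received vehicle, and the HFD + IMC group of 6 mice received 0.06% w/w iodomethylcholine (IMC) in the diet, an inhibitor of the bacterial enzyme that makes trimethylamine from choline. All 11 mice were therefore on HFD, and no lean group was part of the comparison. The age of these mice is not given in the labels used here. A further HFD mouse had been left out by the submitters for quality.

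Insulin binds a receptor tyrosine kinase, which phosphorylates the insulin receptor substrate (IRS) proteins. These recruit phosphoinositide 3-kinase (PI3K), whose lipid product activates the Akt kinases. In fat cells Akt2 is the main Akt isoform for moving the glucose transporter GLUT4 to the cell surface, and Akt also keeps the transcription factor FOXO1 out of the nucleus. Much of this signal passes through phosphorylation and protein movement, which mRNA levels do not measure.

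The promoters of the IRS genes Irs1 and Irs2 are shown because these are the paired adaptors of the pathway and because both hold an E-box (CACGTG) shortly before an insulin response sequence core (TGTTTTG), the motif through which FOXO factors are known to act on insulin-regulated genes. Each line gives the 250 bases before the RefSeq start (GRCm38.p6, minus strand), at chr1:82291440-82291689 for Irs1 and chr8:11008930-11009179 for Irs2. Capitals mark these motifs, GC boxes (GGGCGG) and CCAAT boxes (CCAAT), on either strand.
Irs1: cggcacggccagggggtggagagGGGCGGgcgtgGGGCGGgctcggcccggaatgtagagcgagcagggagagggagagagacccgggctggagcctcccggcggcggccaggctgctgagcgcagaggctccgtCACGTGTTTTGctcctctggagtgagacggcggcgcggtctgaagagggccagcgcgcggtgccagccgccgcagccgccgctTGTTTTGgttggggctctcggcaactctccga
Irs2: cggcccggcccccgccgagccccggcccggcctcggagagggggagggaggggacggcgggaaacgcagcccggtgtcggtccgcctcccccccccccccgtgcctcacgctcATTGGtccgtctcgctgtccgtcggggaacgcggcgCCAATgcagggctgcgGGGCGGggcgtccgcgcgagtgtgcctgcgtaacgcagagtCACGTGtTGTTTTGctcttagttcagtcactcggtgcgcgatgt
In Irs1 the E-box started at -115 and the core at -111, so that they overlapped, and in Irs2 they started at -44 and -37. Irs1 also held a further core, away from the E-box, at -32. An E-box was present in 7.15% of 32851 RefSeq promoters of 300 bases, which run from 250 bases before to 50 after the start, and the core in 6.28% of them. An E-box followed by the core on the same strand within 10 bases was present in 9 of the promoters, or 0.0274%. This arrangement was searched for after the separate matches had been seen, and a match of letters is a description only. The RefSeq table used here held promoters of 8 members, and those of Insr and Slc2a4 were not analysed here. None of the promoters of the 8 held the sterol response motif TCACNCCAC, present in 1.24% of promoters, or the DR1 repeat, present in 0.0396%. The FOXO core TGTTTAC, present in 3.65% of promoters, was found in 1 Akt1 promoter.

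Levels are given as log2 CPM, the log2 of a gene's share of the scaled reads of its library. Libraries held 22320022 to 25155366 reads on the listed genes, and the members were counted with 386 to 5352 reads per mouse. Of the 10 members, 8 were higher in HFD + IMC mice and 2 were lower at an adjusted p under 0.05 (limma with Benjamini-Hochberg adjustment over all genes). Across all genes tested, 20% were higher and 21.0% were lower by the same rule, or 40.9% in either direction. The highest change was in Slc2a4, which encodes GLUT4, and the 2 genes that fell were Akt1 and Slc2a1. In 5 members (Insr, Irs2, Akt1, Akt2 and Slc2a4) the groups did not overlap, against 23.1% of all genes. The median log2 fold change of the members was 0.39, beside -0.03 over all genes. Without HFD mice 1 and 3, which had the lowest Slc2a4 and the lowest summed adipocyte markers, 4 members were higher and 2 lower, and the calls of Irs1, Pik3r1, Foxo1 and Grb14 were lost. These 2 mice were picked after the data were seen. In bulk tissue, fewer cells of a type and less RNA per cell cannot be told apart.

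**Figure D1:**
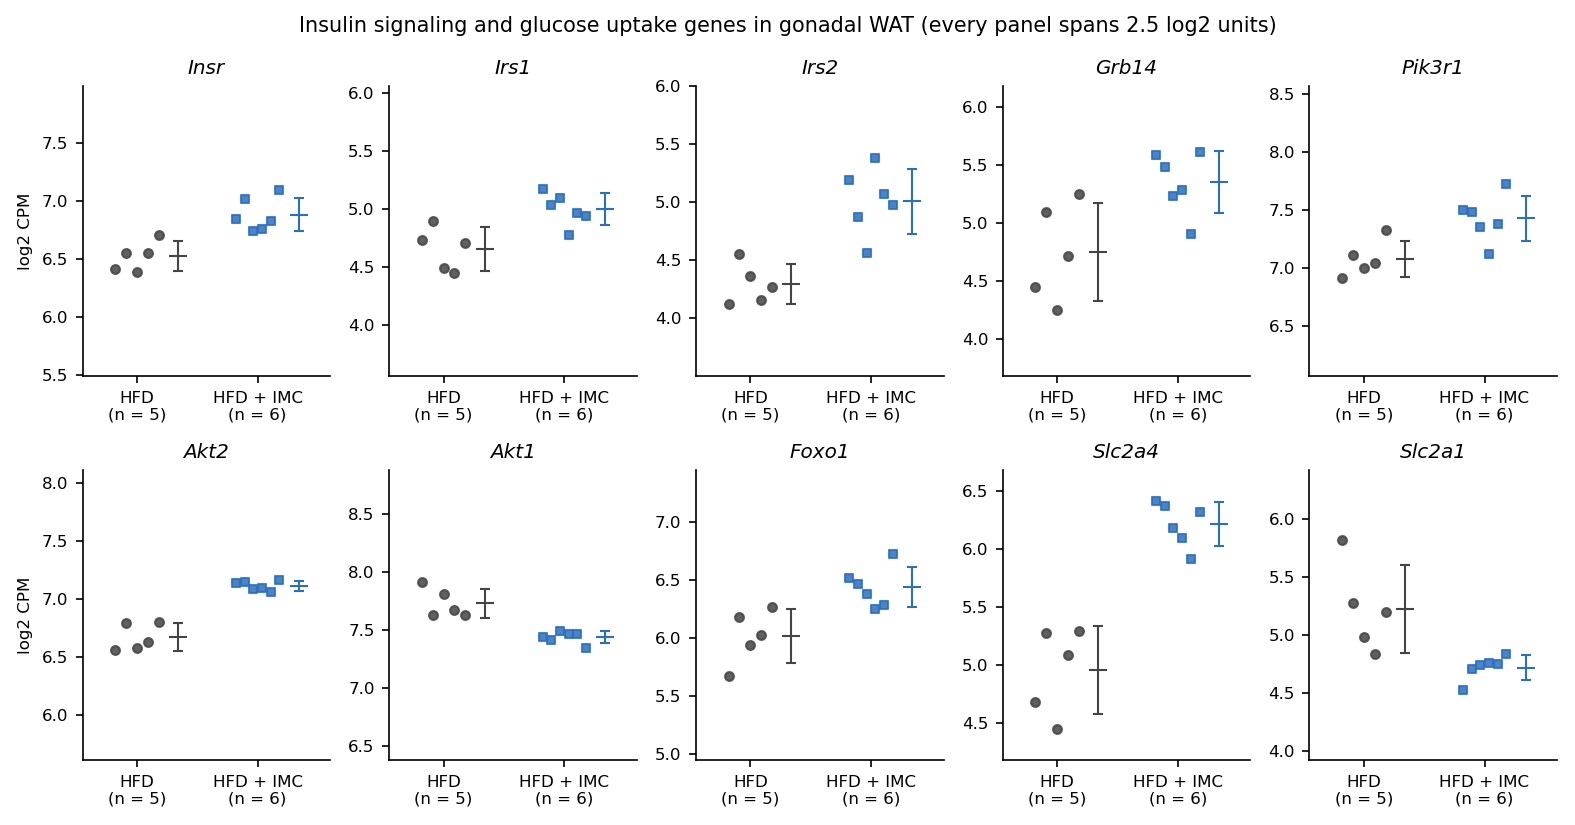
Expression of each member in log2 CPM (vertical axis) by group, with 1 point per mouse and the mean ± SD beside the points. The 6 HFD + IMC mice lie above all 5 HFD mice for Insr, Irs2, Akt2 and Slc2a4 and below them for Akt1, whereas the groups meet or overlap for the other members.

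**Figure D2:**
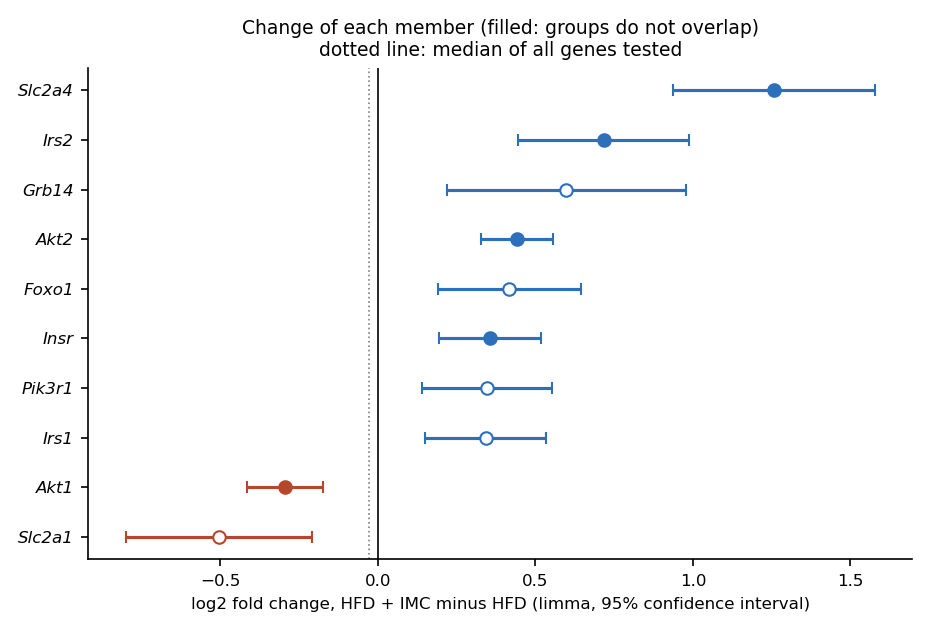
Log2 fold change of each member (HFD + IMC minus HFD, horizontal axis) with its 95% confidence interval from limma. Filled points are members whose groups do not overlap, and the dotted line is the median of all genes; Slc2a4 lies at 1.26, while Akt1 and Slc2a1 lie at -0.30 and -0.50.

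Insr encodes the insulin receptor (chromosome 8, 3150922 to 3279649, minus strand). Its level was 6.41, 6.56, 6.39, 6.55 and 6.71 log2 CPM in HFD mice 1 to 5, and ranged from 6.74 to 7.09 with a median of 6.84 in HFD + IMC mice. The groups did not overlap, although the gap between them was only 0.035. The mean rose from 6.52 ± 0.13 (SD, n = 5) to 6.88 ± 0.14 (SD, n = 6), a log2 fold change of 0.36 (SE 0.075, limma with Benjamini-Hochberg adjusted p = 0.00234). The gene for the related insulin-like growth factor 1 receptor, Igf1r, had a log2 difference of -0.03 (95% confidence interval -0.30 to 0.24). The ratio of Insr to Igf1r within a mouse was higher by 0.39 on the log2 scale in HFD + IMC mice (exact permutation p = 0.0130, adjusted p = 0.0260). This call was lost under 4 of 14 alternatives. These were without HFD mouse 1 (0.34), without HFD mouse 3 (0.35), without both (0.27) and with medians (0.35). Fits with fewer mice have fewer splits, so their smallest possible permutation p is larger.

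Irs1 and Irs2 encode the adaptors that dock PI3K at the receptor. Irs2 (chromosome 8, 10984681 to 11008929, minus strand) measured 4.12, 4.55, 4.36, 4.16 and 4.27 log2 CPM in the HFD mice, and from 4.57 to 5.38 with a median of 5.02 in the HFD + IMC mice. HFD mouse 2 and HFD + IMC mouse 3 were the closest, and the groups did not overlap. Irs2 rose 1.64-fold, with a log2 fold change of 0.72 (SE 0.126, limma with Benjamini-Hochberg adjusted p = 0.000752). Irs1 (chromosome 1, 82233105 to 82291439, minus strand) measured 4.74, 4.90, 4.50, 4.45 and 4.71 in the HFD mice, and from 4.78 to 5.18 with a median of 5.00 in the HFD + IMC mice. Here HFD mouse 2 lay above the lowest HFD + IMC mouse, so the groups overlapped. Irs1 rose by a log2 fold change of 0.34 (SE 0.0894, limma with Benjamini-Hochberg adjusted p = 0.00861), but without HFD mice 1 and 3 the value was 0.31 (limma with Benjamini-Hochberg adjusted p = 0.0525). The exons of both genes overlap a gene on the opposite strand (Gm9747 for Irs1 by 2822 bases and 9530052E02Rik for Irs2 by 162 bases), and whether the authors counted by strand is not given in the sources used here.

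The ratio of Irs1 to Irs2 within a mouse had a log2 difference of -0.37 between the groups (SE 0.171). The exact two-sided permutation test gave p = 0.0693, or 0.0831 after Benjamini-Hochberg adjustment over 6 ratios. A shift in the balance of these adaptors was thus not shown, and without HFD + IMC mouse 3 alone, the HFD + IMC mouse with the lowest Irs2, the difference was -0.48 with an adjusted permutation p of 0.0238.

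Grb14 encodes an adaptor that binds the activated insulin receptor and inhibits its kinase (chromosome 2, 64912476 to 65022766, minus strand). It measured 4.45, 5.09, 4.25, 4.72 and 5.25 log2 CPM in the HFD mice, and from 4.91 to 5.62 with a median of 5.39 in the HFD + IMC mice. HFD mice 2 and 5 lay within the range of the HFD + IMC group, while HFD mice 1 and 3 were the lowest of all. Grb14 rose by a log2 fold change of 0.60 (SE 0.176, limma with Benjamini-Hochberg adjusted p = 0.0160). Without HFD mice 1 and 3 its value was 0.33 (limma with Benjamini-Hochberg adjusted p = 0.150). This inhibitor and the receptor it binds were thus both higher, and their ratio within a mouse (Insr to Grb14) differed by -0.24 on the log2 scale (exact permutation p = 0.160).

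Pik3r1 encodes the p85-alpha regulatory subunit of PI3K and its shorter forms, which bind IRS proteins (chromosome 13, 101680761 to 101768217, minus strand). It measured 6.91, 7.11, 7.00, 7.04 and 7.33 log2 CPM in the HFD mice, and from 7.12 to 7.72 with a median of 7.43 in the HFD + IMC mice. Only HFD mouse 5 lay above the lowest HFD + IMC mouse. Pik3r1 rose by a log2 fold change of 0.35 (SE 0.0954, limma with Benjamini-Hochberg adjusted p = 0.0112), and without HFD mice 1 and 3 the value was 0.27 (limma with Benjamini-Hochberg adjusted p = 0.102). Pik3ca, which encodes the catalytic subunit p110-alpha, had a log2 difference of -0.01 (95% confidence interval -0.12 to 0.09). The ratio of Pik3r1 to Pik3ca was higher by 0.36 on the log2 scale in HFD + IMC mice (exact permutation p = 0.0238, adjusted p = 0.0357). This call was lost under 11 of 14 alternatives, among them most of those that left out a mouse (0.30 to 0.46 over all of these). It was also lost without HFD mice 1 and 3 (0.27, adjusted permutation p = 0.214). With fewer mice there are fewer splits, and the smallest possible p is larger.

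Akt1 and Akt2 changed in opposite directions. Akt2, the isoform that insulin uses most in fat cells (chromosome 7, 27591552 to 27640826, plus strand), measured 6.56, 6.80, 6.58, 6.63 and 6.81 log2 CPM in the HFD mice, and from 7.06 to 7.17 with a median of 7.12 in the HFD + IMC mice. The HFD + IMC mice lay close together, all above the HFD mice by at least 0.25. Akt2 rose by a log2 fold change of 0.44 (SE 0.0531, limma with Benjamini-Hochberg adjusted p = 6.72e-05). Akt1, a kinase of growth and survival signaling present in most cell types (chromosome 12, 112653821 to 112674884, minus strand), measured 7.91, 7.63, 7.81, 7.67 and 7.63 in the HFD mice, and from 7.34 to 7.49 with a median of 7.45 in the HFD + IMC mice. Every HFD mouse was above every HFD + IMC mouse. Akt1 fell by 0.30 on the log2 scale (SE 0.0563, limma with Benjamini-Hochberg adjusted p = 0.00128).

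Within a mouse, the ratio of Akt2 to Akt1 was higher by 0.74 on the log2 scale in HFD + IMC mice (SE 0.112, exact permutation p = 0.00216, adjusted p = 0.00649), and this p is the smallest that 462 splits of the mice can give. Per kilobase of exon and on a linear scale, Akt2 stood at 0.225 to 0.325 of the Akt1 level in HFD mice and at 0.434 to 0.511 in HFD + IMC mice. Akt1 therefore remained the higher of the Akt pair per kilobase in every mouse.

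Foxo1 encodes a transcription factor that Akt phosphorylates and thereby keeps out of the nucleus (chromosome 3, 52268337 to 52350109, plus strand). It measured 5.68, 6.19, 5.94, 6.03 and 6.27 log2 CPM in the HFD mice, and from 6.25 to 6.72 with a median of 6.42 in the HFD + IMC mice. The groups overlapped only by HFD mouse 5, and HFD mouse 1 was the lowest. Foxo1 rose by a log2 fold change of 0.42 (SE 0.105, limma with Benjamini-Hochberg adjusted p = 0.00696), and without HFD mice 1 and 3 the value was 0.28 (limma with Benjamini-Hochberg adjusted p = 0.0615). Foxo1 shares 674 exon bases with Gm20402 on the opposite strand.

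Slc2a4 encodes GLUT4, the insulin-responsive glucose transporter of fat and muscle (chromosome 11, 69942286 to 69948216, minus strand). It measured 4.68, 5.28, 4.45, 5.08 and 5.30 log2 CPM in the HFD mice, and from 5.91 to 6.41 with a median of 6.25 in the HFD + IMC mice. All HFD + IMC mice were at least 0.61 above the highest HFD mouse, and HFD mice 1 and 3 were the lowest of all. Slc2a4 rose 2.39-fold, from 4.96 ± 0.38 (SD, n = 5) to 6.21 ± 0.19 (SD, n = 6), a log2 fold change of 1.26 (SE 0.148, limma with Benjamini-Hochberg adjusted p = 6.07e-05). By log2 fold change it ranked 38 of all 12787 genes from the top.

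Slc2a1 encodes GLUT1, the transporter of basal glucose uptake in most cell types, macrophages included (chromosome 4, 119108745 to 119137330, plus strand). It measured 5.82, 5.28, 4.99, 4.83 and 5.20 log2 CPM in the HFD mice, and from 4.52 to 4.84 with a median of 4.74 in the HFD + IMC mice. HFD mouse 1 was far above the rest, whereas HFD mouse 4 lay within the HFD + IMC range. Slc2a1 fell by 0.50 on the log2 scale (SE 0.137, limma with Benjamini-Hochberg adjusted p = 0.0108), and without HFD mouse 1 by 0.35. It shares 105 exon bases with Gm12868 on the opposite strand.

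The balance of the transporter genes was the widest difference among the 6 ratios. Per kilobase and on a linear scale, the level of Slc2a4 relative to Slc2a1 was 0.456, 1.01, 0.694, 1.20 and 1.08 in HFD mice 1 to 5, and from 2.26 to 3.73 with a median of 2.77 in HFD + IMC mice. The transporter mRNAs were thus near the same level in 3 of the HFD mice, with Slc2a1 the higher in HFD mice 1 and 3, while Slc2a4 was the higher in every HFD + IMC mouse. The log2 difference between the groups was 1.76 (SE 0.276, exact permutation p = 0.00216, adjusted p = 0.00649).

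**Figure D3:**
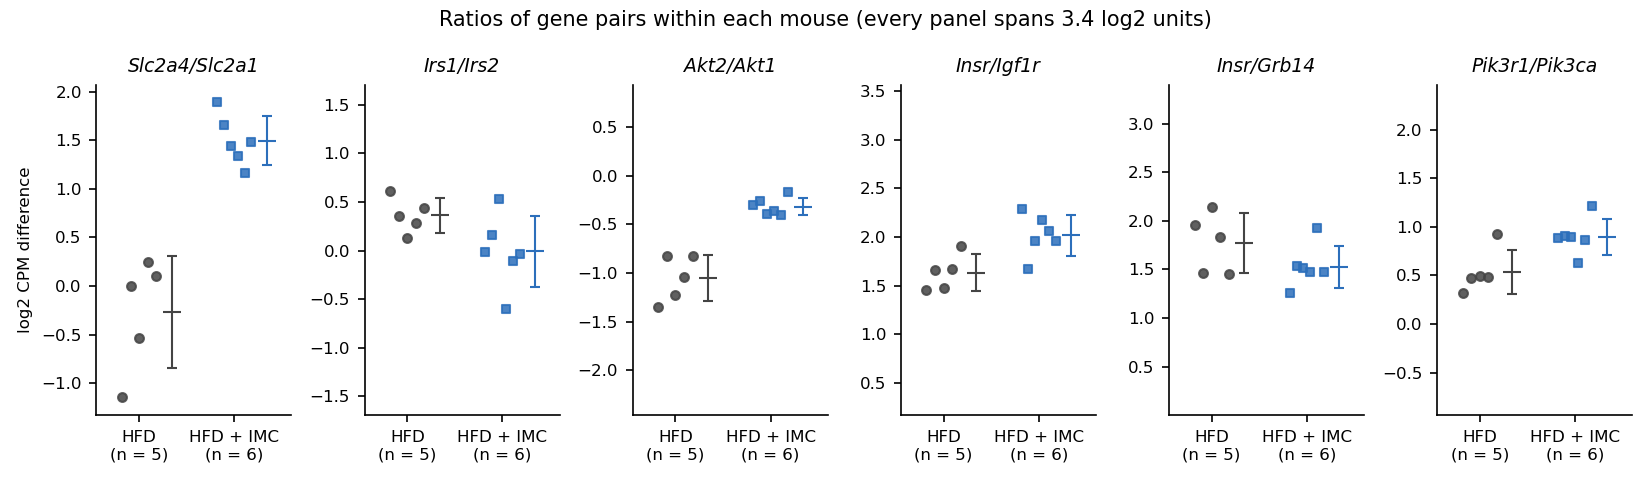
Ratios of gene pairs within each mouse, as the difference of log2 CPM (vertical axis), with 1 point per mouse and the mean ± SD beside the points. The groups separate for Slc2a4/Slc2a1 (from -1.14 to 0.25 in HFD and from 1.16 to 1.89 in HFD + IMC) and for Akt2/Akt1, and overlap for the other 4 ratios.

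Ordered by mean level per kilobase of exon (log2 CPM per kb), the HFD group ran from Akt1 (5.69) over Akt2 (3.84), Pik3r1 (3.74), Slc2a1 (3.41), Slc2a4 (3.16), Foxo1 (2.91), Insr (2.74) and Grb14 (1.91) to Irs2 (1.63) and Irs1 (1.47). Of the neighbours in this order, only Akt1 and Akt2, and Insr and Grb14, had ranges that did not overlap. In the HFD + IMC group Slc2a4 (4.42) stood next after Akt1 (5.40), and Slc2a1 (2.91) stood below Insr (3.10). Among the neighbours there, only Akt1 and Slc2a4, and Pik3r1 and Foxo1, had ranges that did not overlap. The IRS genes were lowest in both groups, with Irs2 at 2.35 and Irs1 at 1.81.

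Markers of other cell types moved with these changes. Of 21 adipocyte markers, 19 were higher in HFD + IMC mice and 0 were lower, and their summed level was 30316 to 35781 CPM in HFD and 44422 to 50334 CPM in HFD + IMC mice. The 2 that did not pass, Lpl (0.15) and Cd36 (0.03), were among the most abundant. The median log2 fold change of the 21 adipocyte markers was 0.87, below the 1.26 of Slc2a4 and above the values of the other members. The markers ran from 0.03 to 1.78, so Slc2a4 lay within their range. Cfd (1.78) and Pck1 (1.30) were above Slc2a4 and the other markers below it. Of 20 macrophage markers, 15 were lower and 0 were higher, with sums of 15982 to 20352 CPM in HFD and 8751 to 12999 CPM in HFD + IMC mice. Within the HFD group, mice 1 and 3 had the lowest adipocyte sums (30316 and 31551) and the highest macrophage sums (20352 and 18628). Macrophage sums were 20352, 15982, 18628, 16954 and 16021 CPM in HFD mice 1 to 5. Slc2a1 in these mice was 5.82, 5.28, 4.99, 4.83 and 5.20 log2 CPM. In HFD + IMC mice 1 to 6 the macrophage sums were 10464, 9765, 12877, 12999, 12561 and 8751 CPM. Slc2a1 there was 4.52, 4.71, 4.74, 4.76, 4.75 and 4.84 log2 CPM. The part of either cell type in the changes of the members was not tested.

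Among the other lists, 7 of 7 listed mast cell markers and 10 of 15 progenitor and fibroblast markers (66.7%) were lower, beside 21.0% of all genes. Of 15 endothelial markers, 4 (26.7%) were higher, near the 20% of all genes. Mast cell sums were 507 to 1157 CPM in HFD and 161 to 326 CPM in HFD + IMC mice, progenitor and fibroblast sums 11506 to 14806 and 8901 to 11951, and endothelial sums 742 to 974 and 839 to 1165. Slc2a4 is also a muscle gene. Of 18 skeletal muscle markers 7 were listed and 4 of them were higher, with sums of 28.5 to 43.1 CPM in HFD and 52.9 to 85.6 CPM in HFD + IMC mice, and the defining markers Ckm, Myh1, Myh4, Mylpf and Tnnt3 were not among the listed genes. Of the higher ones, Acta1, the skeletal actin gene, rose by 1.23 on the log2 scale. Myh2, a fast myosin gene named after its values were seen, rose by 3.02 from a mean of -1.10 to 1.92 log2 CPM. In HFD mice Myh2 ran from -1.36 to -0.64, below the authors' read filter. It was thus listed only through the HFD + IMC mice, and its rise and place in the count rest on that. Ryr1 (0.01), Tnni2 (-0.27) and Actn3 (-0.12) did not pass. Of 6 listed mesothelial markers 2 were lower (240 to 330 CPM in HFD and 110 to 269 CPM in HFD + IMC mice), of T and B cell markers only Cd2 was listed, and the red blood cell and epididymal lists had 0 listed genes. Their part was not tested either.

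**Figure D4:**
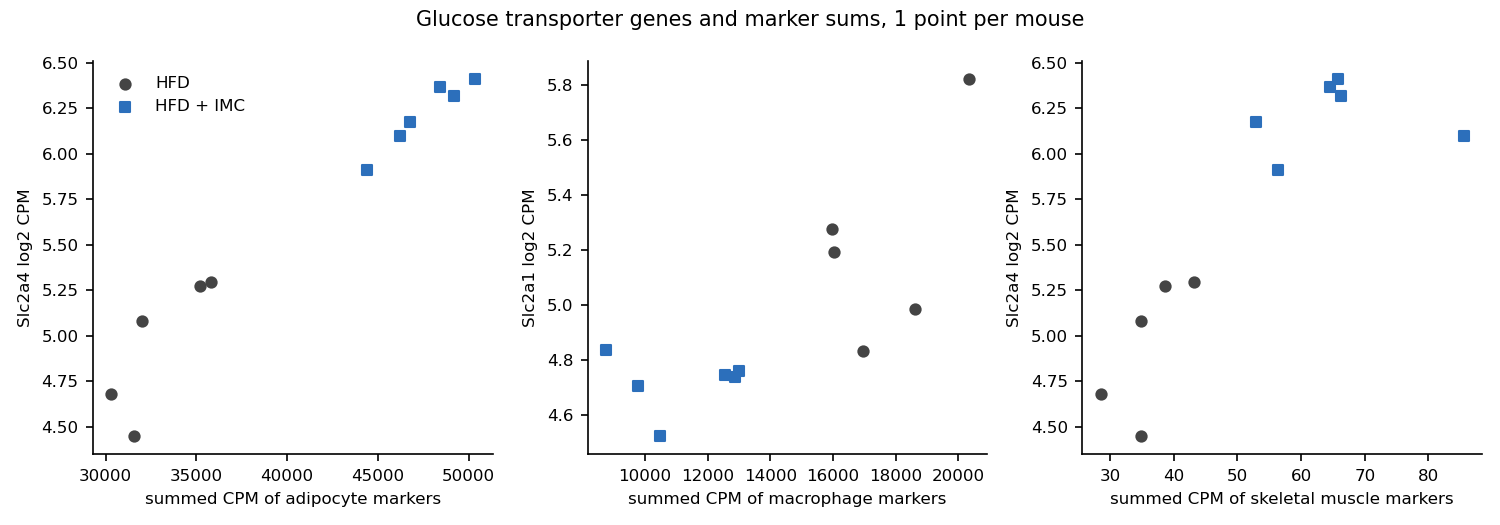
Slc2a4 or Slc2a1 (log2 CPM, vertical axes) against the summed CPM of adipocyte, macrophage and skeletal muscle markers (horizontal axes), with 1 point per mouse. The groups separate on all 3 marker sums, and HFD mouse 1 has both the highest macrophage sum (20352) and the highest Slc2a1 (5.82). HFD mouse 3, with the next highest macrophage sum (18628), has a Slc2a1 of 4.99. HFD + IMC mouse 6, with the lowest macrophage sum (8751), has the highest Slc2a1 of its group (4.84). These mice are named as points of the plot, and the part of macrophages in Slc2a1 was not tested.

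Apart from the members, 134 genes of the pathway were listed by role, and 124 of them were in the table. Of these, 43 (34.7%) were higher in HFD + IMC mice, 25 (20.2%) were lower and 56 did not pass, with a median log2 fold change of 0.01. Over all genes 20% were higher and 21.0% lower, so the lower share was near that of all genes. Among 13 receptor and adaptor genes, 5 were higher, among them the caveola gene Cav1 (0.82) and the adaptor gene Irs3 (0.73), while the adaptor gene Grb2 fell by 0.27. Among 12 PI3K and Akt kinase genes, 5 (41.7%) were higher and 2 (16.7%) lower. The higher ones included Pde3b (0.65), whose product mediates the antilipolytic action of insulin, and the regulatory subunit gene Pik3r3 (0.59). Of 14 genes of the mTOR complexes and their regulators and targets, 7 were higher and 0 lower, with Deptor at 0.65 and Mtor at 0.39.

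Of 21 inhibitors other than Grb14, 4 (19.0%) were higher and 8 (38.1%) lower. The kinase gene Map4k4 rose by 0.27 on the log2 scale. Those that fell included Dok1 (by 0.41) and Dok2 (by 0.51), which encode docking proteins abundant in blood cells, and Socs1 (by 0.85), which encodes a suppressor of cytokine signaling. Socs1 was low in both groups (means of 1.07 and 0.22 log2 CPM), and its groups overlapped. Among 10 further glucose transporters and hexokinases, 3 were higher and 3 lower, or 30% each. Hk2, the insulin-regulated hexokinase gene, rose by 0.86 and Slc2a10 by 0.77, whereas Hk3, a hexokinase gene of myeloid cells, fell by 0.68 and Slc2a6 by 0.85. Of the 26 genes of GLUT4 vesicle traffic, 6 were higher and 6 lower, or 23.1% each, near the 20% and 21.0% of all genes. The higher ones included Sort1 (0.59), which encodes sortilin of the GLUT4 vesicle, and Tusc5 (0.87), a regulator of GLUT4 recycling in fat cells. Those that fell included Stxbp3 (-0.32), Stx4a (-0.30) and Doc2b (-0.54).

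Foxo4 rose by 0.24, and Foxo3 had a log2 difference of -0.10 (95% confidence interval -0.26 to 0.06). Of 17 genes known as FOXO targets, 7 (41.2%) were higher and 3 (17.6%) lower, beside 20% and 21.0% of all genes. Sod2, a mitochondrial antioxidant enzyme gene, rose by 0.57 and Pnpla2, the gene for adipose triglyceride lipase, by 0.64, whereas the cell cycle inhibitor gene Cdkn1b fell by 0.33. Of 11 genes of glucose-responsive transcription, 5 (45.5%) were higher and 2 (18.2%) lower. Srebf1 rose by 0.79 and Mlxipl, which encodes the glucose-sensing factor ChREBP, by 0.62, while Arrdc3 fell by 0.40.

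**Figure D5:**
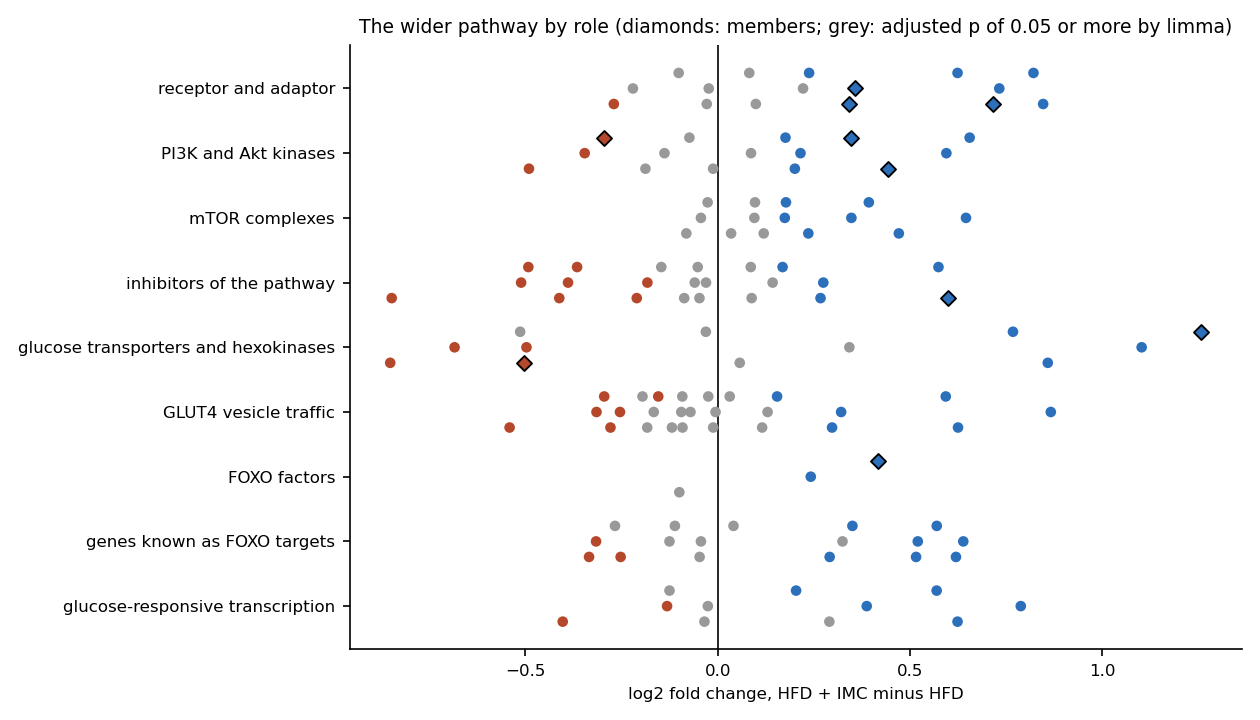
Log2 fold change (horizontal axis) of every listed gene of the pathway, grouped by role, with 1 point per gene. Diamonds are the members, blue and red points passed an adjusted p of 0.05 by limma in the higher and the lower direction, and grey points did not. Slc2a4 lies farthest right, and each role holds genes on both sides of 0.

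After the group means were removed, the members also differed in how they varied between the 11 mice. The gene most like Slc2a4 in the whole table was Grb14 (Pearson r = 0.95), followed by Myl1 (r = 0.95), a myosin light chain gene. Akt2 was most like Mcam and Smoc1 (both r = 0.98), and Foxo1 most like Tlcd1 (r = 0.98). Slc2a1 was most like Ikbkg and Txnrd1 (both r = 0.97), and its r with Slc2a4 was -0.19. Akt1 ran against Akt2 (r = -0.85) and Foxo1 (r = -0.90), and Irs2 had an r between -0.24 and 0.26 with every other member. These values come from the same 11 libraries, which share their scaling and their mix of cells, and are descriptions.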

How the data were processed

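Total RNA from adipose tissue was made into directional libraries and sequenced. The authors trimmed reads with Trim Galore, checked them with FastQC, aligned them to mm10 with STAR, counted reads per gene, removed transcripts with almost no reads in all samples, and scaled with upper quantiles in edgeR. The deposited values are log2 CPM (counts scaled to a common library size) per gene and mouse. Deposited columns with the authors' own fold changes and p-values were not used.

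Groups were compared on the deposited values with limma 3.58.1 (R 4.3.3; lmFit, eBayes with trend) over all 12787 genes, two-sided, with Benjamini-Hochberg adjustment and a threshold of 0.05. Ratios were log2 differences within a mouse, tested by exact permutation over 462 splits. Whole reads were recovered from the steps of the values for depth and for alternatives only. The fit was tested on simulated data. Exon lengths and positions came from GENCODE and promoters from RefSeq, both of the build GRCm38, which mm10 names.

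Members, lists and tests were chosen with earlier results of these data known. Named besides the members were, in each role list, the 4 genes with the smallest p, the partners of the ratios and the 2 genes most like each member; some of these are not reported here. The mice are separate animals, and housing by cage is not given in the labels. The paper states that mice were group-housed, with 2 to 4 cages used per condition. The tests here treat each mouse as independent and could not account for shared cages. Alternatives were no trend, voom on recovered reads, a constant of 2 reads, 2 other scalings, a minimum mean log2 CPM of 3, each mouse left out in turn, medians for the ratios, and, chosen after seeing the data, HFD mice 1 and 3 left out.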

Additional observations from a re-analysis of the deposited data

Results flagged for a closer look

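Of 120 groups of values checked, 5 held a mouse far from the others of its group, and chance alone flags about 1 in 20 groups. Slc2a10 was 4.53 log2 CPM in HFD + IMC mouse 1, against 4.30 in the nearest mouse of its group. Foxo4 was 5.40 log2 CPM in HFD mouse 1, against 5.49 in the nearest. The summed mesothelial markers were 330.3 CPM in HFD mouse 3, against 256.0 in the nearest. The summed mast cell markers were 1157 CPM in HFD mouse 1, against 665.5 in the nearest. The T and B cell sum, which holds only Cd2, was 13.4 CPM in HFD mouse 4, against 6.74 in the nearest.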

How the results depend on the processing

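Of 180 values for the 10 members under 18 alternatives, 176 kept their direction and their side of the threshold, 4 lost the threshold and 0 turned. The 4 were all in the fit without HFD mice 1 and 3, which was chosen after seeing the data because these mice had the lowest Slc2a4 and adipocyte sums. There 4 members were higher instead of 8 (Irs1 0.31, Pik3r1 0.27, Foxo1 0.28 and Grb14 0.33 were lost), 16 genes of the wider pathway were lower instead of 25, 3005 genes of the table passed instead of 5236, and the ratios Insr/Igf1r (0.27) and Pik3r1/Pik3ca (0.27) were lost. That fit has only 3 HFD mice, and the cause was not tested. Fits with fewer mice also have fewer splits, so the smallest p of the permutation test is larger in them. With medians in place of means, Insr/Igf1r (0.35) and Pik3r1/Pik3ca (0.41) were lost as well. With each mouse left out in turn, Pik3r1/Pik3ca ran from 0.30 to 0.46, Insr/Igf1r from 0.33 to 0.46 and Irs1/Irs2 from -0.48 to -0.26. Pik3r1/Pik3ca was lost in most of these fits, Insr/Igf1r without HFD mouse 1 (0.34) or 3 (0.35), and Irs1/Irs2 passed without HFD + IMC mouse 3. Slc2a4/Slc2a1 (1.38 to 1.89) and Akt2/Akt1 (0.58 to 0.79) kept their calls under every alternative tried for them, also without HFD mice 1 and 3. The log2 fold change of Igf1r and the log2 fold change of Pik3ca, which did not pass, changed sign, to 0.032 and 0.027 for Igf1r and 0.0020, 0.011 and 0.0013 for Pik3ca with a mouse left out (ranges -0.13 to 0.032 and -0.046 to 0.011), and to 0.00598 for Igf1r without HFD mice 1 and 3. No paired analysis was possible because replicate numbers follow accession order only and pair no mice. Read depth limits the members little, since each had at least 386 reads in every mouse, whereas 5 HFD mice limit the precision.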
